A study of Mus musculus with 18 samples.

Results

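The early response of wild-type mouse epidermis to tape stripping was read by setting 3 arrays of stripped skin against 3 arrays of unstressed skin, 6 of the 18 arrays of the series. The arrays labelled WT 6 h came from AhR+/+ female mice of the B6;129 background whose shaved back was stripped 5 times with Tegaderm film and sampled 6 h later. The arrays labelled WT 0 h came from AhR+/+ mice whose skin had not been stripped. Where a difference from other animals is given, the arrays are those of AhR-/- littermates of the line B6.129-AhRtm1Bra/J, 3 labelled KO 6 h and 3 labelled KO 0 h, and these animals lack the aryl hydrocarbon receptor in all cells and not in the epidermis alone. Of the table's 33793 rows, 23521 map to 1 gene symbol, and every one of these was compared. Values are on a log scale, taken as log2, and each row had been centred on its median over the 18 arrays, so that a value says how an array stands against the others and carries no absolute level. Labels give epidermal sheets as the source of the RNA, and since levels had been removed, the presence or absence of the markers of any cell type could not be checked.

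Tape stripping pulls off the outer cornified layers and opens the permeability barrier. Keratinocytes below are known to answer such injury with immediate early transcription factors, with the stress keratins, alarmins and small proline-rich proteins of activated epidermis, with lipid synthesis that restores the barrier, and later with proliferation in the basal layer. Basal cells that enter the cell cycle load the MCM helicase onto replication origins before S phase, and the genes of this licensing step are classical targets of the E2F factors.

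Across all 23521 rows, 0 passed an adjusted p under 0.05 (limma, Benjamini-Hochberg), and the smallest adjusted p was 0.229. The adjusted p was 0.99993 for every gene below whose 6 h difference is given without one. Without adjustment, 1086 rows (4.62%) had a p under 0.05, 612 of them higher (2.6%) and 474 lower (2.02%). The 3 WT 6 h arrays lay wholly above the 3 WT 0 h arrays in 1286 rows (5.47%) and wholly below them in 891 rows (3.79%), together 9.26%. Where the gap between means was also over 0.5 log2, 9 rows lay above and 37 below. The median 95% confidence interval reached 0.207 log2 to each side of a difference, and 3 arrays against 3 allow no exact permutation p under 0.1. Every WT difference described below is therefore a difference between these 6 arrays that did not pass the test across all genes.

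Arrays of one label did not behave alike. Krt6a encodes a keratin that is scarce in resting epidermis between the follicles and is switched on by injury. It stood at -0.18, -2.69 and -2.46 in WT 6 h replicates 1, 2 and 3, against -2.21, 0.088 and 0.29 in WT 0 h replicates 1, 2 and 3. Replicate 1 was the high array among the stripped samples and the low array among the unstressed ones, so that the 2 groups overlapped and the replicates of each group disagreed by over 2 log2. In the KO arrays, Krt6a stood at 1.76, 0.30 and 0.53 at 6 h, against -2.65, -1.65 and -2.19 at 0 h, with no overlap. Replicates 2 and 3 of WT 6 h thus lay close to or below the lowest unstressed KO arrays, and replicates 2 and 3 of WT 0 h lay just under the lowest stripped KO array. Whether any array carries the wrong label was not tested, and the groups below are used as labelled.

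The same opposition of replicate 1 to replicates 2 and 3 ran through whole groups of genes. Replicate 1 was the highest WT 6 h array and also the lowest WT 0 h array for 12 of 27 wound keratins and alarmins (44.4%), against 16.2% of all rows. It was the lowest WT 6 h array and the highest WT 0 h array for 22 of 30 G2 and mitosis genes (73.3%), 15 of 32 immediate early genes (46.9%) and 15 of 33 junction genes (45.5%), against 14.4% of all rows. A 4-digit number in the labels, whose meaning is not stated, splits the arrays in the same way: it is 3000 or above for replicate 1 of both groups and under 3000 for the others. Of the 232 rows with an SD over 0.5 log2 among the WT 0 h arrays, replicate 1 was the odd one in 188, and of the 129 such rows among the WT 6 h arrays it was the odd one in 94. Replicate 1 also had the lowest array weight in limma in each group, 0.755 at 6 h and 0.559 at 0 h. Several of the gene lists are therefore given with all arrays and again with replicate 1 set apart.

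**Figure D1:**
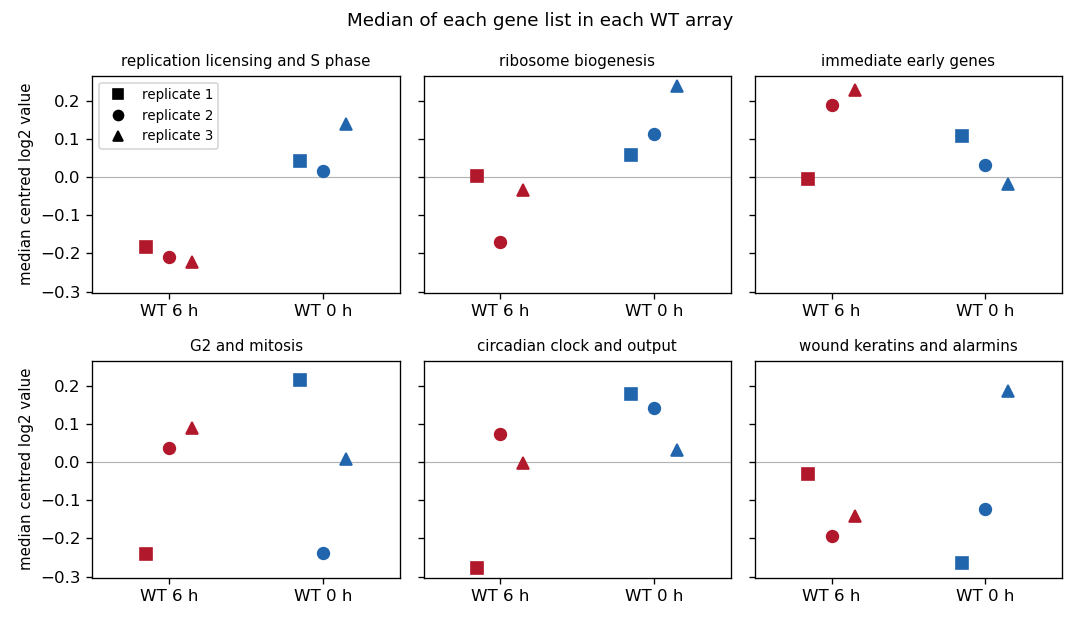
Median centred log2 value of the measured members of 6 gene lists in each WT array, with WT 6 h in red at the left and WT 0 h in blue at the right; the marker shape gives the replicate. The replication list separates the 2 times in every replicate, whereas for mitosis and wound genes the gap between the times in replicate 1 runs opposite to that in replicates 2 and 3.

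Genes of DNA replication licensing had the largest share of members wholly lower at 6 h among the 33 lists examined. Of 27 measured members, 15 lay wholly lower at 6 h and 0 wholly higher, where 3.79% of all rows lay wholly lower, and the median difference was -0.33 log2 against 0.0074 over all rows. At an unadjusted p under 0.05, 16 members were lower (2.02% of all rows). The median was negative in each subset of arrays. It was -0.30 within replicates 2 and 3 and -0.18 for replicate 1 alone, and without WT 0 h replicate 1 it was -0.37, with 19 members wholly lower (10.1% of all rows). Fewer cells in a state and less RNA of a gene per cell cannot be told apart in such samples.

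The promoters of Mcm6 and Hells are shown because they carry the E2F-type motif in whole, and that of Mcm2 because it does not, although all 3 genes stood lower at 6 h. The 120 bases that end just before the transcription start are printed 5′ to 3′ on the gene's strand, from RefSeq in GRCm38.p6, with the motif in capitals. They lie at chr1:128359706-128359825 on the minus strand (Mcm6), chr19:38930870-38930989 on the plus strand (Hells) and chr6:88898781-88898900 on the minus strand (Mcm2).
Mcm6: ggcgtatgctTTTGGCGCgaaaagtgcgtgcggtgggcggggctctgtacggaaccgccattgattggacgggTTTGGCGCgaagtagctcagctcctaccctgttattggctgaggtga
Hells: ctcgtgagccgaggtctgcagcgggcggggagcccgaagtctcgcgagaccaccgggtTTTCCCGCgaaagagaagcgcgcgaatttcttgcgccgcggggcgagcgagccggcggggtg
Mcm2: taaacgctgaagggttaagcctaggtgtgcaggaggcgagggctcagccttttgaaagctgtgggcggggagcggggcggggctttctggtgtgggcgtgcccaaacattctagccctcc

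The motifs searched were TTTCCCGC and TTTGGCGC on either strand, each occurrence counted on its own. Mcm6 holds 2 of them, which begin 110 and 47 bases before the start, Hells holds 1 that begins at 62 bases, and Mcm2 holds 0 in the printed stretch. Over the whole 250 bases before the start, 5 of the 23 replication genes with an entry held a motif (21.7%): Mcm5, Mcm6, Mcm7, Cdc6 and Pola1. The share was 1.51% over the 27025 genes in the table, 11.5% of 26 ribosome biogenesis genes (Ncl, Nop58 and Nolc1) and 0 of 24 G2 and mitosis genes. These are letter matches and say nothing of whether a factor sits there.

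The MCM helicase is a ring of 6 subunits that is loaded at origins and unwinds DNA. Mcm2 stood at -0.43, -0.43 and -0.56 at 6 h, against -0.076, 0.16 and 0.24 at 0 h, a difference of -0.58 log2 (SE 0.13). Every stripped array lay below every unstressed one, with replicate 1 the lowest of the unstressed arrays. Mcm5 stood at -0.30, -0.79 and -0.59 at 6 h, against 0.11, 0.24 and 0.26 at 0 h, the widest gap of the 6 subunits at -0.76 (SE 0.20). Mcm6, whose promoter is printed above, stood at -0.49, -0.29 and -0.55 at 6 h, against -0.0062, 0.18 and 0.16 at 0 h, and differed by -0.55 (SE 0.11, adjusted p = 0.952). Both were again free of overlap. Mcm3, Mcm4 and Mcm7 behaved alike, with differences of -0.56, -0.61 and -0.42 and no overlap in any of the 3.

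Around the helicase, Clspn encodes claspin, which travels with the replication fork and passes the checkpoint signal to the kinase CHK1. It stood at -0.50, -0.25 and -0.28 at 6 h, against 0.045, 0.24 and 0.20 at 0 h, a difference of -0.50 (SE 0.094, adjusted p = 0.883). Chek1, the gene of CHK1 itself, stood at -0.24, -0.19 and -0.16 at 6 h, against 0.20, 0.27 and 0.21 at 0 h. Its difference was -0.42 (SE 0.11), and the spread within each time was a fraction of the gap between them. Hells, a chromatin remodeller of the SNF2 family needed for DNA methylation, stood at -0.73, -0.088 and -0.47 at 6 h, against 0.46, 0.46 and 0.43 at 0 h, and differed by -0.88 (SE 0.21). The unstressed arrays agreed closely for this gene, while the stripped ones were spread widely below them. Chek1 and Hells are not members of the replication list and were named for their p or the width of their gap.

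**Figure D2:**
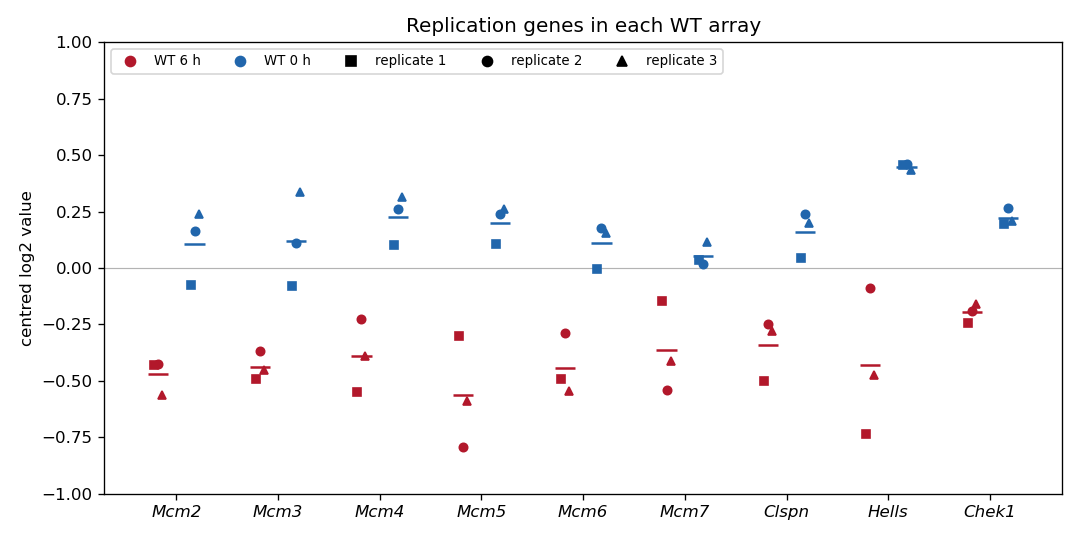
Centred log2 value of 9 replication genes in each WT array, WT 6 h (red) left of WT 0 h (blue); the marker shape gives the replicate and the bar the mean of 3 arrays. In all 9 genes the highest stripped array lies below the lowest unstressed array. The 9 genes were chosen in part on these values, and of the 27 measured members of the replication list 15 lay wholly lower.

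Genes of G2 and mitosis did not follow those of licensing. Of 30 measured members, 0 lay wholly lower and 0 wholly higher, against 3.79% and 5.47% of all rows, and the median difference was -0.026. Replicates 2 and 3 gave a median of 0.22 and replicate 1 alone gave -0.60, so that the sign turned with the arrays used. Within replicates 2 and 3, 15 members lay wholly higher (20.5% of all rows) and 0 wholly lower (18.1% of all rows). Mki67, which encodes the proliferation marker Ki-67, stood at -0.86, 0.24 and 0.62 at 6 h, against 0.58, -0.30 and 0.20 at 0 h. Ndc80, a kinetochore gene, stood at -0.90, 0.20 and -0.0095 at 6 h, against 0.75, -0.041 and -0.13 at 0 h. In both, stripped replicate 1 was the lowest of the 6 arrays and unstressed replicate 1 among the highest. Cdk1, the kinase gene that drives entry into mitosis, differed by 0.23 (SE 0.14).

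Ribosome biogenesis, the making of ribosomal RNA and its assembly in the nucleolus, had the next largest share. Of 30 members, 11 lay wholly lower at 6 h (3.79% of all rows) and 0 wholly higher, and 28 had a negative difference (46.3% of all rows). The median difference was -0.17, with -0.27 within replicates 2 and 3 and -0.063 for replicate 1 alone, and without WT 0 h replicate 1, 15 members lay wholly lower (10.1% of all rows). Ncl, the gene of nucleolin, stood at -0.38, 0.095 and -0.031 at 6 h, against 0.29, 0.69 and 0.56 at 0 h, a difference of -0.62 (SE 0.17). Nop58, a core protein gene of the box C/D snoRNPs that methylate ribosomal RNA, stood at -0.45, 0.079 and -0.22 at 6 h, against 0.45, 0.24 and 0.31 at 0 h, and differed by -0.53 (SE 0.21). Neither gene overlapped between the times, and within each, stripped replicate 1 was the lowest array.

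Injury-induced genes of the epidermis showed no common direction in WT. Among 27 wound keratins and alarmins, 0 lay wholly higher at 6 h and 2 wholly lower, Gsdmc and Serpinb3a. Over all rows, 5.47% lay wholly higher and 3.79% wholly lower. The list's median difference was -0.06. It was -0.21 within replicates 2 and 3 and 0.20 for replicate 1 alone. Krt16, the partner keratin of Krt6a, stood at -0.14, -0.77 and -0.47 at 6 h, against -1.14, 0.14 and 0.84 at 0 h, a difference of -0.41 (SE 0.48). Stfa1, a stefin of the cysteine protease inhibitor family, stood at -0.72, -1.14 and -1.46 at 6 h, against -1.98, -0.31 and 0.50 at 0 h, and differed by -0.51 (SE 0.61). Unstressed replicate 1 was the lowest of the 6 arrays for both genes, and unstressed replicate 3 the highest. Krt6a itself differed by -1.17 with all arrays (SE 0.74), by -2.76 within replicates 2 and 3, and by 2.03 for replicate 1 alone. In the fit of only the arrays numbered under 3000, Krt6a was the 1 row that passed (adjusted p = 0.00613). The fit that left out only replicate 1 of both WT groups compares the same WT arrays. There 0 rows passed, and the smallest adjusted p was 0.0703. Gsdmc, a gasdermin gene, stood at -0.86, -1.08 and -0.74 at 6 h, against -0.57, -0.38 and 0.31 at 0 h, a difference of -0.68 (SE 0.35), with every stripped array below the unstressed ones.

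**Figure D3:**
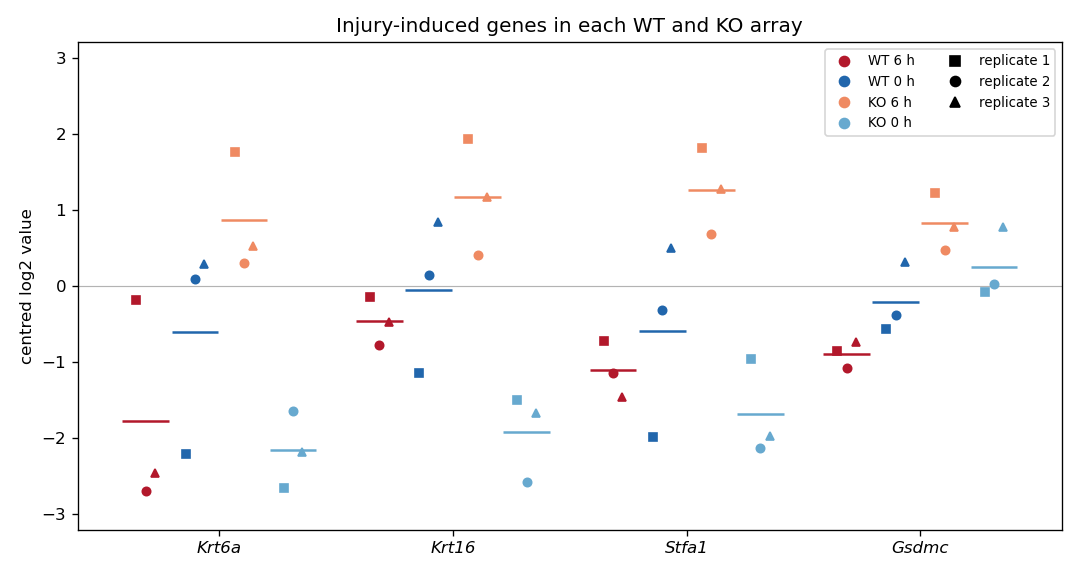
Centred log2 value of 4 injury-related genes in each array, from left to right WT 6 h, WT 0 h, KO 6 h and KO 0 h; the marker shape gives the replicate and the bar the mean of 3 arrays. For Krt6a, Krt16 and Stfa1 the WT groups overlap and the KO groups do not.

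Immediate early genes, which are transcribed within minutes of a stimulus without new protein synthesis, had small differences in one direction. Of 32 members, 30 had a positive difference (53.7% of all rows), with a median of 0.10, but 2 lay wholly higher (5.47% of all rows). Within replicates 2 and 3 the median was 0.24 and 25 members lay wholly higher (20.5% of all rows), whereas for replicate 1 alone the median was -0.12. Jund, a subunit gene of the AP-1 factor, stood at -0.037, 0.04 and 0.39 at 6 h, against -0.76, -0.15 and -0.41 at 0 h, a difference of 0.57 (SE 0.19). Klf2, a Kruppel-like factor gene, stood at 0.51, -0.11 and -0.21 at 6 h, against -0.65, -0.34 and -0.41 at 0 h, and differed by 0.54 (SE 0.14). These 2 are the members free of overlap. Klf2 differed by 1.17 for replicate 1 alone; 6 rows passed there, Klf2 among them, but this sets 1 array against 1 with the spread taken from the other groups. Egr1, a zinc finger factor gene induced by growth signals, stood at 0.07, 0.056 and 0.24 at 6 h, against 0.062, -0.18 and -0.48 at 0 h, with a narrow overlap.

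Enzymes of the epidermal lipid barrier included more members above their unstressed level than the background. Of 31 members, 5 lay wholly higher at 6 h (16.1%, against 5.47% of all rows) and 0 wholly lower, although the median difference was 0.043. Without replicate 1 of both groups, 12 lay wholly higher and 5 wholly lower, against 20.5% and 18.1% of all rows. Dgat2, which makes triglycerides from diacylglycerol, stood at 0.025, 0.22 and 0.32 at 6 h, against -0.046, -0.12 and -0.081 at 0 h, a difference of 0.27 (SE 0.092). Elovl1, which extends very long fatty acids for ceramides, stood at 0.12, 0.014 and 0.085 at 6 h, against -0.061, -0.40 and -0.19 at 0 h, and differed by 0.29 (SE 0.13). Every stripped array lay above every unstressed array in both genes. Smpd1, the acid sphingomyelinase gene, and Aloxe3, an epidermal lipoxygenase gene of the cornified lipid envelope, differed by 0.22 and 0.25, also with no overlap. Of 44 measured genes of the cornified envelope and late differentiation, 1 lay wholly higher and 0 wholly lower, with a median of 0.037.

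Among genes that respond to FOXO factors, glucocorticoids and stress, 4 of 25 lay wholly higher at 6 h (16%, against 5.47% of all rows) and 0 wholly lower, with a median of 0.088. Without replicate 1 of both groups these were 10 and 2, against 20.5% and 18.1% of all rows. Fbxo32, a ubiquitin ligase subunit gene and FOXO target known from muscle, stood at 0.10, 0.46 and 0.42 at 6 h, against 0.049, -0.25 and -0.31 at 0 h, a difference of 0.50 (SE 0.14). Mt4, the metallothionein gene of stratified epithelia, stood at 0.25, 0.032 and 0.11 at 6 h, against -0.57, -0.16 and -0.71 at 0 h, and differed by 0.62 (SE 0.26). Neither gene overlapped between the times, although stripped and unstressed replicate 1 were close together for Fbxo32. A separate list of 26 unfolded protein and heat shock genes had a median of 0.0014, with 13 above 0. Of these 26, 2 lay wholly higher and 1 wholly lower, against 5.47% and 3.79% of all rows. Hspa8, the constitutive heat shock protein gene of that list, stood at 0.0011, -0.10 and -0.21 at 6 h, against -1.09, -0.29 and -0.40 at 0 h. It differed by 0.49 (SE 0.20) without overlap, with unstressed replicate 1 far below the rest.

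Clock genes form a transcriptional loop in which ARNTL (BMAL1), with CLOCK or NPAS2, drives the PER and CRY repressors and the PAR bZIP factors DBP, TEF and HLF. The labels give no time of day, so that hours after stripping and the hour of sampling cannot be told apart. Of 18 members, 3 lay wholly lower at 6 h, Hlf, Tef and Per3, and 0 wholly higher, against 3.79% and 5.47% of all rows, with a median of -0.21. Dbp stood at -1.33, -0.65 and -1.30 at 6 h, against -0.84, 0.36 and -0.025 at 0 h, a difference of -0.93 (SE 0.42). Npas2 stood at 1.06, 0.64 and 1.45 at 6 h, against 0.81, 0.028 and -0.16 at 0 h, and differed by 0.83 (SE 0.31). The groups overlapped in both genes through unstressed replicate 1, which lay towards the stripped arrays. Arntl lay the same way as Npas2, with 0.59, 0.33 and 0.57 at 6 h, against 0.55, -0.28 and -0.15 at 0 h. Tef and Hlf, which belong to the DBP family, had differences of -0.39 and -0.34. The list's median difference was -0.015 within replicates 2 and 3 and -0.47 for replicate 1 alone.

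Signalling and inflammatory genes gave scattered differences. Among 32 cytokines and chemokines, 3 lay wholly higher and 1 wholly lower, near the 5.47% and 3.79% of all rows, with a median of 0.061. Il33, an alarmin of the interleukin 1 family, stood at 0.42, 0.16 and 0.05 at 6 h, against -0.17, -0.25 and -0.16 at 0 h, a difference of 0.40 (SE 0.17). Cxcl14, a chemokine made by resting keratinocytes, stood at 0.39, 0.11 and 0.68 at 6 h, against 0.22, -0.36 and -0.31 at 0 h, with overlap through unstressed replicate 1. Ptgs2, the inducible cyclooxygenase gene, ran the other way, with -0.046, -0.10 and 0.21 at 6 h, against 1.03, 0.28 and 0.69 at 0 h, a difference of -0.64 (SE 0.33) and no overlap. Tnc, a matrix glycoprotein gene of healing tissue, and Nrg1, an ERBB receptor ligand gene, also lay wholly lower, by -0.54 and -0.49. Ptgs2 and Tnc were the 2 of 23 wound protease and matrix genes wholly lower (8.7%), with 0 wholly higher and a median of -0.029. Nrg1 was the 1 of 12 EGFR ligand and receptor genes wholly lower (8.33%), with 0 wholly higher and a median of 0.0092. Over all rows these shares were 3.79% lower and 5.47% higher. In the junction list, 4 of 33 lay wholly lower and 1 wholly higher, against 3.79% and 5.47% of all rows. Cldn3, a tight junction claudin gene, was the higher one at 0.14, 0.26 and 0.11 at 6 h, against -0.37, -0.61 and -0.11 at 0 h (0.54, SE 0.16). The desmosomal genes Pkp2 and Dsg2 were among the lower ones, at -0.24 and -0.36. Without replicate 1 of both groups, 13 junction genes lay wholly higher and 6 wholly lower, against 20.5% and 18.1% of all rows.

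Markers of cells other than keratinocytes were compared for their shift between arrays only. Among 17 melanocyte genes, 3 lay wholly lower at 6 h (3.79% of all rows) and 0 wholly higher, with a median of -0.14. Without replicate 1 of both groups, 5 lay wholly lower and 2 wholly higher, against 18.1% and 20.5% of all rows. Tyrp1, a melanin synthesis enzyme gene, stood at -0.39, 0.019 and -0.17 at 6 h, against 1.47, 0.26 and 0.50 at 0 h, a difference of -0.93 (SE 0.26). Unstressed replicate 1 was by far the highest, as it was for Dct, another melanin enzyme gene, whose groups overlapped and differed by -0.75, while Kit, the receptor gene shared by melanocytes and mast cells, was more even (-0.22, -0.39 and -0.088 at 6 h, against 0.015, 0.011 and 0.003 at 0 h). Among 22 genes of epidermal T cells, 2 lay wholly lower and 1 wholly higher, with a median of 0.02. Trat1, a T cell receptor-associated adaptor gene, stood at 0.27, 0.89 and 0.71 at 6 h, against 0.95, 1.22 and 1.22 at 0 h, a difference of -0.51 (SE 0.15). Rgs1 was the other lower member (-0.38), and the T cell receptor gamma variable gene Trgv5 the higher one, at 1.59, 1.51 and 1.52 at 6 h, against 1.11, 1.48 and 1.39 at 0 h. Tigit, an inhibitory receptor gene of lymphocytes that is not on this list, stood at 0.016, -0.039 and 0.027 at 6 h, against 0.28, 0.30 and 0.46 at 0 h. The Langerhans cell list had a median difference of -0.10, with 1 of 18 wholly higher, the class II antigen loading gene H2-DMb1 at 0.087, and 1 wholly lower, the costimulatory ligand gene Cd86 at -0.27. Without replicate 1 of both groups, 1 Langerhans cell gene lay wholly higher and 8 wholly lower, against 20.5% and 18.1% of all rows. The neutrophil and monocyte list had a median of 0.018, with 15 of 27 above 0, 1 wholly higher and 1 wholly lower. With all arrays, these counts stand beside 5.47% of all rows wholly higher and 3.79% wholly lower. Clec7a, the gene of the fungal glucan receptor dectin-1, was the lower member of that list, at -0.16, -0.20 and -0.029 at 6 h, against 0.37, 0.23 and 0.17 at 0 h. Elane, the neutrophil elastase gene, was the higher one, at 0.044, 0.12 and 0.16 at 6 h, against -0.0026, 0.025 and -0.055 at 0 h. Hair follicle genes had 5 of 36 wholly higher and 4 wholly lower, against the same 5.47% and 3.79%. Krt32, a hair keratin gene, was among the higher ones at 0.17, 0.11 and 0.19 at 6 h, against -0.23, -0.14 and -0.0022 at 0 h (0.28, SE 0.14). The inner root sheath keratin genes Krt71, with overlap, and Krt25, without, had differences of -1.08 and -0.60, through unstressed replicates 1 and 3 (Krt71 at -0.36, -0.44 and -0.036 at 6 h, against 1.22, -0.27 and 1.45 at 0 h). The part of these shifts in the results on other genes was not tested.

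**Figure D4:**
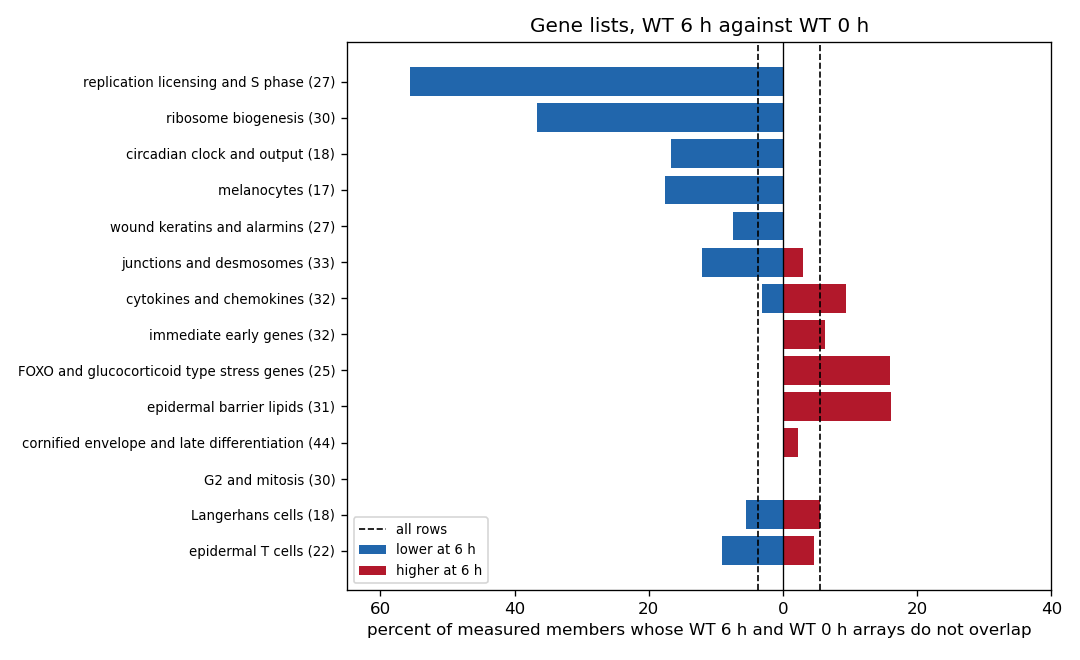
Percent of the measured members of 14 gene lists whose 3 WT 6 h arrays lie wholly above (red, right) or wholly below (blue, left) the 3 WT 0 h arrays; list sizes are in brackets and dashed lines mark all rows, at 5.47% and 3.79%. The replication list reaches 55.6% on the lower side.

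Genes named for their small p or wide gap lay largely outside these lists. Pramel24, a member of the PRAME-like family, had the smallest p of all, with 0.16, 0.14 and 0.12 at 6 h, against -0.18, -0.22 and -0.24 at 0 h, a difference of 0.35 (SE 0.054, adjusted p = 0.229). Bcl2l1, the gene of the survival protein BCL-XL, stood at 0.12, 0.071 and 0.11 at 6 h, against -0.18, -0.15 and -0.22 at 0 h, a difference of 0.29 (SE 0.059, adjusted p = 0.952). Replicates agreed to within about 0.1 log2 in both. Hs3st6, a heparan sulfate sulfotransferase gene, stood at 0.42, 0.11 and 0.48 at 6 h, against -0.025, -0.41 and -0.56 at 0 h, and had the widest gap upwards without overlap among named genes (0.67, SE 0.14, adjusted p = 0.952). Ass1, which makes the arginine precursor argininosuccinate, and Il22ra1, the interleukin 22 receptor subunit gene, differed by 0.47 and 0.41 without overlap. Pde3b, a cyclic nucleotide phosphodiesterase gene, stood at -0.12, -0.016 and -0.021 at 6 h, against 0.40, 0.35 and 0.20 at 0 h (-0.37, SE 0.071, adjusted p = 0.883), and the RNA helicase gene Dhx9 differed by -0.40, both free of overlap. Ahr itself stood at 0.064, 0.58 and 0.64 at 6 h, against 0.63, 0.16 and 0.072 at 0 h, with full overlap (0.14, SE 0.14).

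Whether the WT response differed from that of AhR-/- littermates was tested as the difference between the 2 responses, WT minus KO, in the same fit. Here 172 rows passed (0.731%), 117 with the WT response above the KO response (0.497%) and 55 below it (0.234%). In 171 of these the 2 responses had opposite signs. The rows were selected for a wide difference between the responses, which itself favours opposite signs, so this count is no separate result. The KO response was the larger in size in 159, with a median size of 0.226 log2 in WT and 0.612 in KO. The count rests on single arrays: it was 441, 25 and 24 without WT 6 h replicate 1, 2 or 3, and 749, 13 and 14 without WT 0 h replicate 1, 2 or 3. It was 185, 109 and 31 without KO 6 h replicate 1, 2 or 3, and 50, 2 and 39 without KO 0 h replicate 1, 2 or 3. Within numbers under 3000 it was 198, within numbers of 3000 and above 0, and with the replicate numbers as a block 49.

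On the side where WT lay above KO, Fbxo32 had the smallest p. Its response was 0.50 in WT, against -1.39 in KO, a difference of 1.89 (SE 0.20, adjusted p = 0.00288). The genotypes already stood apart without stripping: the Fbxo32 mean at 0 h was -0.17 in WT, against 0.77 in KO. At 6 h it was 0.33 in WT, against -0.62 in KO. Il22ra1, through which interleukin 22 reaches keratinocytes, responded by 0.41 in WT, against -0.82 in KO (difference 1.23, SE 0.14, adjusted p = 0.00465). For both genes the mean lay above its 0 h value in WT and below it in KO, by more in KO. Rspo3, a WNT-enhancing ligand gene, responded by 0.44 in WT, against -1.39 in KO (adjusted p = 0.0181), and Sostdc1, a BMP and WNT antagonist gene, by 0.31 in WT, against -1.19 in KO (adjusted p = 0.0181). For these 2 the WT arrays overlapped between the times. The MYC antagonist gene Mxd4, Prr12, Hs3st6 and the keratinocyte calmodulin-like gene Calml3 also passed, with differences between responses of 0.96, 0.96, 1.37 and 0.73. Dgat2, Bcl2l1 and Egr1 passed with 0.70, 0.46 and 0.91, and their KO responses were -0.43, -0.17 and -0.59. Egr1 lost the call in 16 of 25 settings and Dgat2 in 11, whereas Fbxo32 and Il22ra1 each lost it in 1.

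On the side where WT lay below KO, replication genes recurred. Of the replication list, 5 of 27 passed (0.234% of all rows): Mcm2, Mcm3, Mcm5, Mcm6 and Clspn. Of 25 alternative settings, the call was lost in 17 for Mcm5 and for Mcm6, in 12 for Mcm3 and for Clspn, and in 8 for Mcm2. Mcm2 responded by -0.58 in WT, against 0.55 in KO, a difference of -1.13 (SE 0.19, adjusted p = 0.0241). In the KO arrays Mcm2 stood at 0.16, 0.22 and -0.32 at 6 h, against -0.66, -0.46 and -0.48 at 0 h. The differences between responses were -1.07, -1.30, -0.76 and -0.69 for Mcm3, Mcm5, Mcm6 and Clspn, and the list's median response was -0.33 in WT, against 0.17 in KO. Ribosome biogenesis had 4 of 30 that passed on this side, with a median response of -0.17 in WT, against 0.52 in KO. Utp4, a gene of the small subunit processome, responded by -0.25 in WT, against 1.04 in KO (difference -1.29, SE 0.24, adjusted p = 0.0323), a call lost in 10 of 25 settings.

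A few immune and wound genes also passed on this side. Clec7a responded by -0.39 in WT, against 0.52 in KO (difference -0.91, SE 0.13, adjusted p = 0.0166), and Rgs1, a regulator of G protein signalling gene of lymphocytes, by -0.38 in WT, against 0.47 in KO (adjusted p = 0.0467). Nrg1 responded by -0.49 in WT, against 1.41 in KO (adjusted p = 0.0487), and Pde3b by -0.37 in WT, against 0.20 in KO (adjusted p = 0.0295). The call was lost in 17 of 25 settings for Rgs1, 16 for Nrg1, 10 for Pde3b and 3 for Clec7a. Krt16 responded by -0.41 in WT, against 3.08 in KO (difference -3.50, SE 0.67, adjusted p = 0.0391), and lost the call in 11 of 25 settings. The difference was wider still for the glutathione transferase gene Gsta4 (-3.52, SE 0.75, adjusted p = 0.047). Gsta4 responded by -0.51 in WT, against 3.01 in KO, and its call was not followed over the settings. Krt6a did not pass (difference -4.19, SE 1.05, adjusted p = 0.0793). The wide spread of the WT replicates given above enters both of these keratin values.

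**Figure D5:**
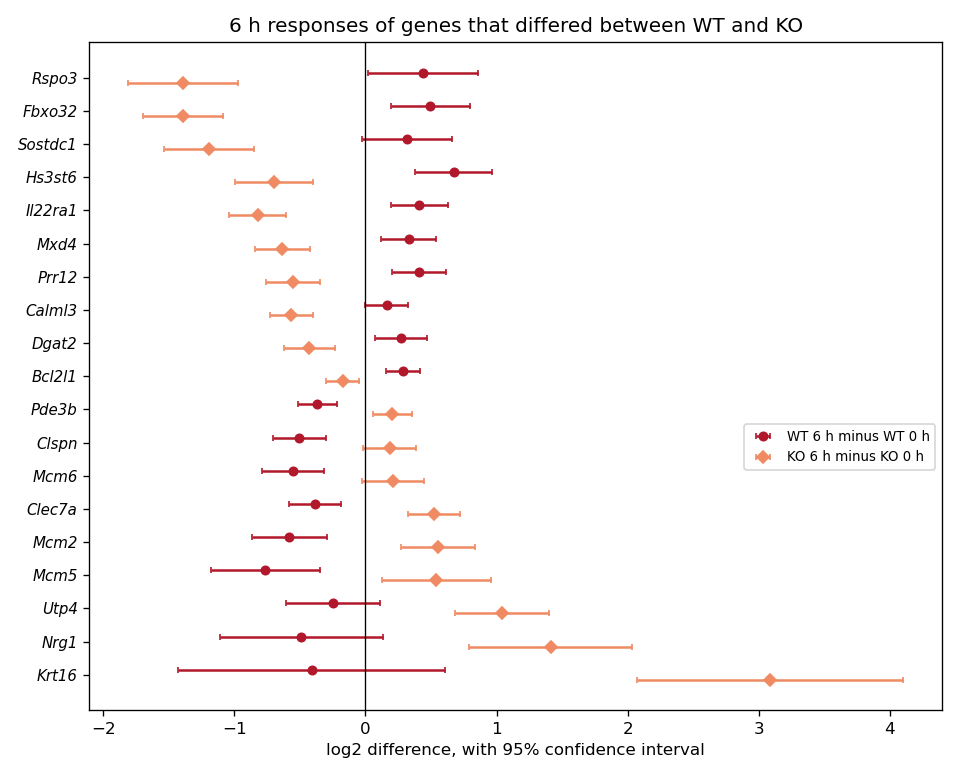
Difference between 6 h and 0 h in log2 for 19 genes whose response differed between genotypes, WT (red circles) drawn above KO (orange diamonds) in each line, with 95% confidence intervals from the fit over 18 arrays. The WT responses lie closer to 0 than the KO responses for Fbxo32, Rspo3 and Krt16, and on the other side of it. For others, among them Clspn, Bcl2l1 and Pde3b, the WT response is the larger in size.

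In the later WT arrays, taken 24 h after stripping, all 9 plotted replication genes had smaller differences from the same WT 0 h arrays than at 6 h. Mcm2 stood at 0.13, -0.12 and 0.076 at 24 h, and its differences from 0 h were -0.58 at 6 h and -0.08 at 24 h. Those of Mcm5 were -0.76 at 6 h and -0.10 at 24 h, and those of Clspn -0.50 at 6 h and -0.10 at 24 h. Ncl had -0.62 at 6 h and -0.98 at 24 h, Dbp -0.93 and 0.15, and Npas2 0.83 and -0.089. The difference between the 2 times was not tested, and both share the 0 h arrays. The 9 genes were chosen in part on their 6 h values, which itself favours smaller differences at 24 h. All WT 24 h arrays have label numbers of 3000 or above, whereas WT 6 h and WT 0 h hold numbers on both sides of 3000. The part of the label number in these differences was not tested.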

How the data were processed

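RNA of epidermal sheets from 18 mice was measured on Affymetrix arrays after labelling 100 ng of total RNA with the WT Plus kit, per the labels' protocols, with 3 littermates per genotype and time, and each array was taken as 1 animal. The authors deposited 1 table of log-scale values, read here as log2, since the values do not show the base. The rows have a median of 0 over the 18 arrays, and neither the software nor the normalisation is named in the sources used here. With levels removed, no filter on dim rows could be set and no depth applies to arrays, whose number limits the precision. Rows without a symbol (8458) or with several (1814) were left out.

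All 6 groups of genotype and time were fitted together as group means over 18 arrays in limma 3.58.1 (R 4.3.3; 12 residual degrees of freedom), with Benjamini-Hochberg adjustment across 23521 rows and a threshold of 0.05. A gene with several rows is given by its most variable one (largest SD). The fit was also run on simulated data with independent noise in each array. Those data lacked the opposition of replicate 1 seen here, so they do not test the fit under it. If arrays of 1 group were not separate animals, p-values measure technical spread.

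The gene lists (33, with 746 of 811 members measured) and the comparison itself were chosen with earlier results of these data known. Genes were named by rule: Ahr, the 15 smallest p and the 15 widest gaps without overlap in each direction, up to 4 smallest p and 2 widest ranges per list, and the 10 smallest p in each direction for the difference between genotypes. Mcm3, Mcm7, Arntl, Krt16, Per3, Trgv5 and the motif-bearing Cdc6, Pola1 and Nolc1 were named after their values were seen. Alternatives were other normalisations, row sets, weights, robust and smaller fits, replicate number and label number as blocks, arrays within 1 range of the label number, and each array left out. Promoters were read from RefSeq (GRCm38.p6), and the 2 motifs of 8 bases were searched in 250 bases before each start.

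Same-numbered arrays of WT 6 h and WT 0 h had deviations that correlated at -0.25, -0.185 and -0.159, so the numbers were not taken to pair animals.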

Additional observations from a re-analysis of the deposited data

Results flagged for a closer look

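The 6 h response differed between WT and KO, by the test of the difference itself, in 172 rows. Of the named genes among them, 22 were followed over the alternative settings. Those with the WT response above the KO response were Fbxo32 (1.89 log2, WT minus KO), Rspo3 (1.83), Sostdc1 (1.51), Hs3st6 (1.37), Il22ra1 (1.23), Mxd4 (0.96), Prr12 (0.96), Egr1 (0.91), Calml3 (0.73), Dgat2 (0.70) and Bcl2l1 (0.46). Those with the WT response below the KO response were Krt16 (-3.50), Nrg1 (-1.90), Mcm5 (-1.30), Utp4 (-1.29), Mcm2 (-1.13), Mcm3 (-1.07), Clec7a (-0.91), Rgs1 (-0.84), Mcm6 (-0.76), Clspn (-0.69) and Pde3b (-0.57). Further genes that met the naming rule also passed but were not followed. Among them were Fam180a (1.41), Cldn8 (1.06) and Clstn1 (0.82) above, and Gsta4 (-3.52), Gadl1 (-2.08), Dkc1 (-0.89), Ctsz (-0.89) and Gpd2 (-0.78) below.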

How the results depend on the processing

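For WT 6 h against WT 0 h, 0 rows passed by limma in every alternative fit except within label numbers under 3000 (1 row) and for numbers of 3000 and above (6 rows), while 1086 rows had an unadjusted p under 0.05. The difference between the WT and KO responses passed in 79 rows with unnamed rows added, 429 among rows above the median SD, 95 with robust variances, 864 with array weights, 72 with the compared groups alone and 0 for numbers of 3000 and above. It passed in 1351 without replicate 1 of both WT groups, an alternative chosen after seeing the data, and in 2 to 749 with 1 array left out. With the replicate number as a block 49 rows passed; the numbers do not pair the animals by the check of their deviations. Of 63 genes over 20 settings, 56 never changed sign. Part of this was fixed in advance: settings that change only the rows, the variance estimate or the other groups leave the difference itself unchanged. For genes without overlap, no subset of the WT 6 h and WT 0 h arrays can turn the sign. Sign changes were Ndc80 to 0.18 and Mki67 to 0.48 for numbers under 3000 and without both replicates 1, and Krt6a to 2.03, Krt16 to 0.998, Stfa1 to 1.26, Cdk1 to -0.087 and Ahr to -0.57 for 3000 and above. With 1 array left out, Mki67 ran between -0.47 and 0.27, Krt16 between -0.96 and 0.036 and Stfa1 between -1.20 and 0.041. List medians changed sign for G2 and mitosis (0.22 under 3000 and without both replicates 1, and -0.17 to 0.099 with 1 array left out), immediate early genes (-0.12 for 3000 and above), wound genes (0.20 for 3000 and above, and -0.15 to 0.074 with 1 array left out), junctions (0.11 under 3000 and without both replicates 1, and -0.089 to 0.030 with 1 array left out), T cells (-0.081 to 0.052 with 1 array left out) and Langerhans cells (0.14 for 3000 and above). With 1 array left out, medians near 0 also crossed it for the cornified envelope (-0.011 to 0.089), heat shock (-0.029 to 0.039) and barrier lipids (-0.0002 to 0.078). The causes were not tested, and single-array comparisons assume that the lone arrays vary like the others. Of the 22 genes with differing responses that were followed, none changed sign over 25 settings. Their calls were lost in 191 of 549 combinations of gene and setting. These genes were taken from those that passed the test of the difference between responses. Some settings leave that difference unchanged, so constant signs add no support.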
